A study of Mus musculus with 4 samples.

Results

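The genes examined here are 45 cell cycle and proliferation genes, 18 that act mainly in S phase, when DNA is copied, and 27 that act mainly in mitosis, out of 55401 genes listed for bone marrow. They were chosen by name, as genes whose RNA is high in dividing cells, and all 45 were present. The choice was made with earlier results of these data known. Bone marrow from the tibia of male wild-type C57/B6 mice was sequenced in 4 RNA-seq libraries. All of the mice received a high-fat diet (HFD) from 8 weeks of age, and the diet was given for 6 weeks before they were divided and went on afterwards. Of the 4 libraries, 2 came from obese mice that did not run (Ob) and 2 from obese mice that also ran on a treadmill at moderate intensity, 6 days a week for 12 weeks (Ob + Exe). No lean mice enter the comparison, so it shows running against not running within obesity. The labels number the libraries 1 and 2 in each group and do not tie a number to a mouse, so the errors given here measure the spread between libraries.

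The marrow is the tissue in which blood cells are made, and erythroblasts, granulocyte progenitors and B cell precursors divide there in large numbers. In S phase, the Mcm2-7 helicase is loaded onto DNA by Cdc6 and Cdt1 and then opens it for the polymerases, while ribonucleotide reductase and thymidylate synthase supply the building blocks. Towards mitosis, cyclins A and B bind Cdk1, the Polo and Aurora kinases build and check the spindle, and the anaphase-promoting complex (APC/C) with Cdc20 ends mitosis by marking cyclin B and securin for destruction. Transcripts of both classes rise and fall with the cycle, and their level in a whole tissue depends, among other things, on the share of its cells in cycle.

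The 45 genes were well covered. A gene held between 1031 and 164061 read equivalents (coverage times length over read length) in a library, with a median of 8037. The libraries held between 8702 and 9952 Mb of aligned bases, and the 4 scaling factors lay between 0.9494 and 1.033. Levels are given as scaled FPKM, that is fragments scaled to transcript length and library depth, summed over the transcripts of a gene and divided by the scaling factor, so genes can be compared per unit length. The labels name the tissue as bone marrow but also name a cell line, mesenchymal stem cells, and a cell type, fibroblast. The marker genes were those of whole marrow, since the 12 markers of stroma and fibroblasts summed to between 122 and 180 scaled FPKM, the 12 of maturing neutrophils to between 28800 and 67400, and the 13 of erythroblasts to between 56100 and 83100.

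None of the 45 genes passed the test between Ob and Ob + Exe. A gene was called when its log2 fold change lay beyond 1 in either direction and limma, fitted to log2 values of all genes with a mean of at least 0.1 FPKM, gave it an unadjusted p under 0.05. This held for 690 of 18596 genes, or 3.71%, of which 508 were lower and 182 higher in Ob + Exe, and for 0 of the 45. At an unadjusted p under 0.05 alone it was 933 genes, or 5.02%, and again 0 of the 45. Among the 5930 genes at or above the level of the lowest of the 45, 50 were called. In those 5930, 221 had an unadjusted limma p under 0.05. Beside these counts, 0 of 45 does not set the genes apart from others of their level. The smallest Benjamini-Hochberg adjusted p from limma was 0.96 among the 45 and 0.768 among all genes, so that 0 genes at all were under 0.05 after adjustment. With 2 libraries against 2, an exact permutation test of a single gene cannot give a two-sided p under 0.333.

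The 45 log2 fold changes (Ob + Exe minus Ob) ran from -0.51 for Plk1 to 0.28 for Gins2, and 33 were below 0 and 12 above it. Of all 18596 genes tested, 9693 were below 0, and of the 5930 at or above the lowest of the 45, 2561 were. Every one of the 95% confidence intervals held 0, and for 40 of the 45 the interval lay wholly within 1 log2 unit of 0 on either side. Among those 5930 genes, 5709 intervals held 0 and 4299 lay within 1 log2 unit. The median was -0.10 over the 45, against -0.02 over all genes tested and 0.05 over the 5930 genes at or above the level of the lowest of the 45. For the 18 S phase genes the median was -0.06 and for the 27 mitosis genes -0.14. The difference between these medians was not tested. In marrow sequenced as bulk tissue, fewer dividing cells and less of these RNAs in each cell cannot be told apart.

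**Figure D1:**
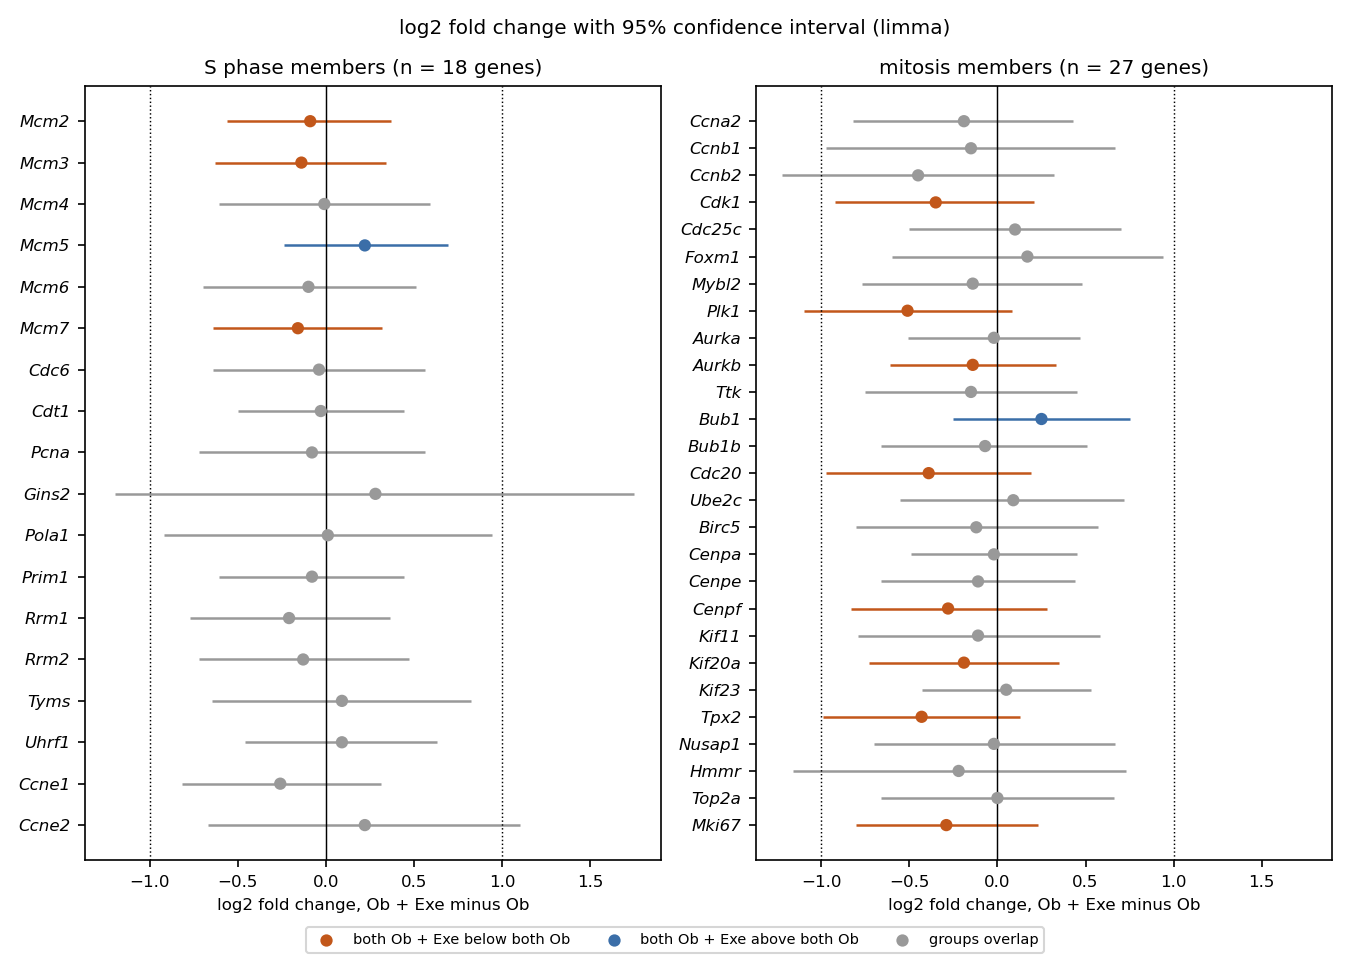
Log2 fold change of each gene (points; Ob + Exe minus Ob) with its 95% confidence interval from limma (lines), S phase genes on the left and mitosis genes on the right, coloured by whether the 2 groups of libraries overlapped. The dotted lines mark 1 log2 unit, and all 45 intervals cross 0.

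The 2 groups of libraries did not overlap for 13 of the 45 genes. Each Ob + Exe library lay below each Ob library for 11, namely Mcm2, Mcm3, Mcm7, Cdk1, Plk1, Aurkb, Cdc20, Cenpf, Kif20a, Tpx2 and Mki67. That is 24.4% of the 45, beside 18.7% of all genes tested and 14.0% of the 5930 genes at or above the lowest of the 45. Each Ob + Exe library lay above each Ob library for Mcm5 and Bub1, 4.44% of the 45, beside 14.0% and 16.9%. For Mcm5 this rests on FPKM, as limma voom on read equivalents gave it a log2 fold change of -0.06. Of the 11, 3 are S phase genes and 8 mitosis genes, or 16.7% and 29.6% of their class.

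The promoters of both classes are shown for a gene with both Ob + Exe libraries lower in scaled FPKM and a gene with both higher. E2F factors are known to drive S phase genes, and the cell cycle genes homology region (CHR) is known from mitosis genes, often near a CCAAT box bound by NF-Y. RefSeq promoter windows (GRCm38.p6) were matched by symbol for 36 of the 45 genes, in 38 windows. Letters were searched on both strands, and matches that overlap each other were counted. An E2F match (TTTCCCGC, TTTCGCGC, TTTGCCGC or TTTGGCGC) was in 47.1% of the 17 windows of S phase genes, 4.76% of the 21 windows of mitosis genes and 2.26% of all 32851 windows. A CHR match (TTTGAA or TTTAAA) was in 29.4%, 85.7% and 27.6% of them, and CCAAT in 76.5%, 85.7% and 37.4%. The sequences are the 200 bases that end just before the RefSeq start, read 5′ to 3′ on the strand of the gene, with matches to these letters in capitals.
Mcm3, chr1:20820313-20820512, minus strand: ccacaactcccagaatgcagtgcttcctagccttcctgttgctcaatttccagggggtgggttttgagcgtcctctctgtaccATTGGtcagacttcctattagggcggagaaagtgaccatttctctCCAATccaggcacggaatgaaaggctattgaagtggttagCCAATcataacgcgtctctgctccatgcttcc
Mcm5, chr8:75109309-75109508, plus strand: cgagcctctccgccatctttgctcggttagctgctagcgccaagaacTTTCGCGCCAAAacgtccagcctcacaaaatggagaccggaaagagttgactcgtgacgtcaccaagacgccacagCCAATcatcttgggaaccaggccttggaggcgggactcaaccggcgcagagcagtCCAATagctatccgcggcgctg
Plk1, chr7:122159235-122159434, plus strand: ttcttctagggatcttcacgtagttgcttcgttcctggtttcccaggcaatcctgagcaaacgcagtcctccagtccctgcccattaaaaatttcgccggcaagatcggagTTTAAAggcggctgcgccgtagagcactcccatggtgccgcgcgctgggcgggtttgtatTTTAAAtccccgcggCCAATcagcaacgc
Bub1, chr2:127831860-127832059, minus strand: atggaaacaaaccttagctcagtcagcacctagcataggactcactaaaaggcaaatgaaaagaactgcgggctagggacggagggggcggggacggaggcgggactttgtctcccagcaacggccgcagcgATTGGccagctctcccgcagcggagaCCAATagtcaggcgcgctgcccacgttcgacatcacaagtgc

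In these windows, Mcm5 held a pair of overlapping E2F matches that began 153 and 149 bases before the start and a CHR match 221 bases before it, upstream of the bases printed, and Mcm3 held its E2F matches within the transcribed bases, from positions 20 and 39. Plk1 held CHR matches 89 and 29 bases before the start and from position 31 of the transcribed bases, and CCAAT 14 bases before it. Bub1 held CCAAT 68 and 42 bases before the start and no E2F or CHR match in its window. Mcm5 and Bub1, the genes with higher scaled FPKM in Ob + Exe, therefore did not share these letters beyond CCAAT, which all 4 windows held. For Mcm5 the higher level was not seen with read equivalents.

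Among the S phase genes, the 6 subunits of the Mcm2-7 helicase, which unwinds DNA at the replication fork, were nearly level between the groups. Together they summed to 366 and 364 scaled FPKM in Ob replicates 1 and 2 and to 337 and 363 in Ob + Exe replicates 1 and 2, and values below are given in this order of libraries. Mcm2 stood at 59.1 and 63.7 scaled FPKM in Ob against 58.6 and 56.4 in Ob + Exe. Mcm3 stood at 56.8 and 66.0 in Ob against 54.8 and 56.0 in Ob + Exe, and Mcm7 at 75.6 and 81.8 against 73.5 and 67.5. These 3 genes were lower in both Ob + Exe libraries than in either Ob library, by means 6.39%, 9.72% and 10.5% below those of Ob, with log2 fold changes of -0.09 ± 0.19, -0.14 ± 0.20 and -0.16 ± 0.19 (SE). Mcm4 stood at 46.0 and 35.6 scaled FPKM in Ob against 35.5 and 45.5 in Ob + Exe, and Mcm6 at 83.3 and 71.8 against 61.0 and 85.7. In both, one library of each group was high and the other low, and the groups overlapped. Mcm5 went the other way, at 44.9 and 45.1 scaled FPKM in Ob against 53.7 and 51.6 in Ob + Exe, a mean 16.9% higher with a log2 fold change of 0.22 ± 0.19 (SE). This value depends on how its reads are counted, since the log2 fold change was -0.06 when read equivalents were tested with limma voom instead of FPKM, and its transcripts are given further on.

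The loaders of the helicase did not separate the groups. Cdc6 stood at 20.2 and 25.2 scaled FPKM in Ob against 24.7 and 19.4 in Ob + Exe. Cdt1, which is kept to G1 by geminin and by degradation, stood at 41.4 and 44.0 in Ob against 42.8 and 41.0 in Ob + Exe. Their log2 fold changes were -0.04 and -0.03, and in each the Ob and Ob + Exe libraries were interleaved. That of Cdt1 was -0.19 with read equivalents tested by limma voom.

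Genes of the replication fork showed the widest spread between the Ob + Exe libraries. Pcna, the sliding clamp that tethers polymerases to DNA, stood at 265 and 269 scaled FPKM in Ob against 209 and 305 in Ob + Exe. Pola1, the catalytic subunit of polymerase alpha, stood at 10.7 and 9.24 in Ob against 7.10 and 14.2 in Ob + Exe. Gins2, a subunit of the GINS complex that activates the helicase, stood at 10.3 and 10.8 in Ob against 6.64 and 24.6 in Ob + Exe. In all 3 the Ob + Exe libraries lay on either side of both Ob libraries, with Ob + Exe replicate 1 lowest and replicate 2 highest. The gap between those replicates was 3.71-fold for Gins2, 2.00-fold for Pola1 and 1.46-fold for Pcna, while the Ob replicates of Gins2 differed 1.04-fold. For Gins2 this gave the widest interval of the 45, a log2 fold change of 0.28 with a 95% confidence interval from -1.20 to 1.75. Of its exon bases, 67.3% are shared with Gse1 on the opposite strand, and the library kit named in the methods is not stated to keep the strand. Gse1 stood at 19.9, 21.0, 18.4 and 15.3 scaled FPKM in the 4 libraries, and the part of shared reads was not tested. Prim1, the primase that lays down RNA primers, stood at 33.6 and 41.8 scaled FPKM in Ob against 35.9 and 34.9 in Ob + Exe, with the Ob + Exe libraries between the Ob libraries.

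Enzymes of nucleotide supply were likewise low in Ob + Exe replicate 1. Rrm1, the large subunit of ribonucleotide reductase, stood at 94.5 and 84.3 scaled FPKM in Ob against 67.1 and 89.2 in Ob + Exe. Rrm2, its small and cycle-regulated subunit, stood at 213 and 232 in Ob against 174 and 240 in Ob + Exe. Tyms, thymidylate synthase, stood at 26.7 and 24 in Ob against 20.8 and 34.7 in Ob + Exe. It was the lowest library for all 3 and the groups overlapped, with log2 fold changes of -0.21, -0.13 and 0.09. That of Tyms was -0.07 with read equivalents.

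Uhrf1, which brings Dnmt1 to newly copied DNA, stood at 59.6 and 71.9 scaled FPKM in Ob against 76.7 and 63.0 in Ob + Exe, so that here Ob + Exe replicate 1 was highest. Of the E-type cyclins, which activate Cdk2 at the entry into S phase, Ccne1 stood at 42.6 and 53.9 in Ob against 36.3 and 44.2 in Ob + Exe, and Ccne2 at 30.1 and 38.7 against 28.4 and 55.5. The log2 fold changes were 0.09 for Uhrf1, -0.26 for Ccne1 and 0.22 for Ccne2, and the groups overlapped in each. Ccne2 shares 17.4% of its exon bases with Ints8 on the opposite strand, which stood at 12.1, 10.4, 7.81 and 18.5 scaled FPKM and was, like Ccne2, lowest in Ob + Exe replicate 1 and highest in replicate 2.

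**Figure D2:**
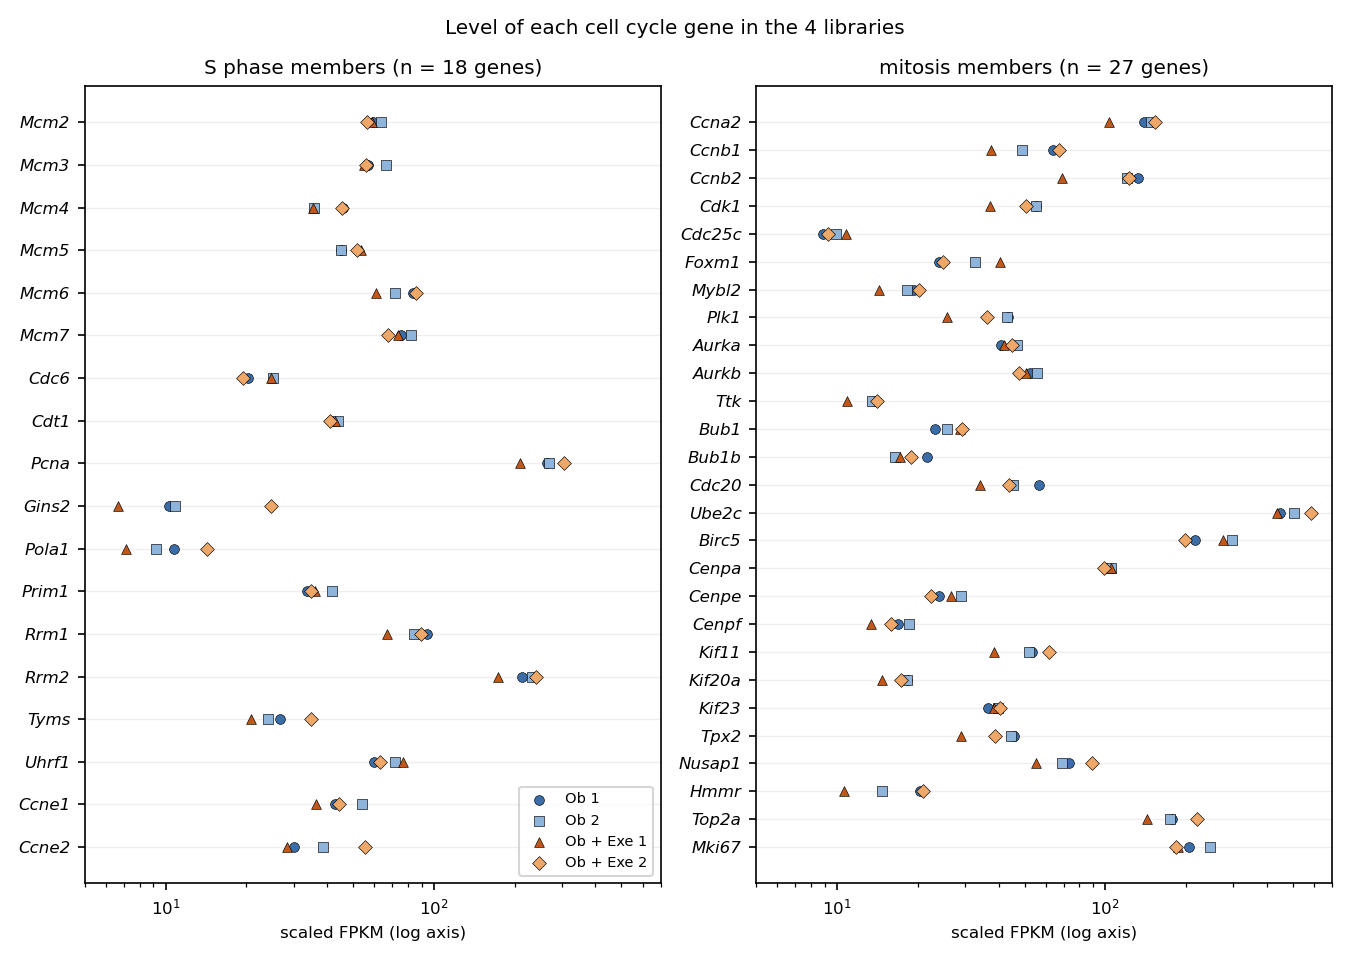
Scaled FPKM (log axis) of each gene in the 4 libraries, S phase genes on the left and mitosis genes on the right; circles and squares are Ob replicates 1 and 2, triangles and diamonds Ob + Exe replicates 1 and 2. Levels run from Cdc25c, with a mean of 9.73, to Ube2c, with a mean of 494, and the triangles lie at the left end for 27 of the 45 genes.

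Among the mitosis genes, the cyclins and Cdk1 gave some of the lower values in Ob + Exe. Cdk1, the kinase that drives entry into mitosis, stood at 55.4 and 55.3 scaled FPKM in Ob against 37.1 and 50.5 in Ob + Exe. Its mean was 20.8% lower in Ob + Exe, with a log2 fold change of -0.35 ± 0.23 (SE), and each Ob + Exe library lay below each Ob library. Ccnb2, a B-type cyclin and the only one of the 45 with a single annotated transcript, stood at 132 and 120 in Ob against 69.2 and 123 in Ob + Exe. Its log2 fold change of -0.45 came from Ob + Exe replicate 1, since replicate 2 lay between the Ob libraries. Ccnb1 stood at 63.9 and 48.9 scaled FPKM in Ob against 37.6 and 67.3 in Ob + Exe, and Ccna2, which acts in S phase as well, at 140 and 148 against 103 and 153. Both were lowest in Ob + Exe replicate 1 and highest in replicate 2, with log2 fold changes of -0.15 and -0.19. Ccna2 shares 12.5% of its exon bases with Exosc9 on the opposite strand, at 35.6, 34.2, 19.8 and 32.6 scaled FPKM in the 4 libraries. Exosc9 was likewise lowest in Ob + Exe replicate 1, but highest in Ob replicate 1. In all, 12 of the 45 genes were overlapped by an exon of another gene. Cdc25c, a phosphatase that activates Cdk1, was the lowest gene of the 45, at 8.87 and 9.90 scaled FPKM in Ob against 10.8 and 9.28 in Ob + Exe, and its groups overlapped.

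The transcription factors of the late cycle differed in which Ob + Exe library was low. Foxm1, which drives mitosis genes, stood at 24.1 and 32.8 scaled FPKM in Ob against 40.4 and 24.9 in Ob + Exe, which gave a log2 fold change of 0.17 with the groups overlapping. Mybl2, the B-Myb protein of the MuvB complex, stood at 19.4 and 18.3 in Ob against 14.4 and 20.3 in Ob + Exe, which gave a log2 fold change of -0.14. Foxm1 was thus highest, and Mybl2 lowest, in Ob + Exe replicate 1.

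Of the mitotic kinases, Plk1 gave the largest log2 fold change of the 45 in size. Plk1, the Polo kinase of centrosome maturation and spindle assembly, stood at 43.5 and 43.2 scaled FPKM in Ob against 25.7 and 36.1 in Ob + Exe. Means were 43.3 ± 0.18 in Ob and 30.9 ± 7.31 in Ob + Exe (SD, n = 2 each), 28.7% lower. The log2 fold change was -0.51 ± 0.24 (SE), with a 95% confidence interval from -1.10 to 0.08 and, by limma, an unadjusted p of 0.0793 and a Benjamini-Hochberg adjusted p of 0.96. The groups did not overlap, but the Ob + Exe libraries differed 1.40-fold from each other. Its unadjusted limma p was 0.0418 with no scaling, 0.0325 with crossed replicate numbers and 0.0175 without Ob + Exe replicate 2, and ran up to 0.262 over the other alternatives. Aurkb, the Aurora kinase of the chromosomal passenger complex, stood at 52.5 and 55.5 in Ob against 50.5 and 47.5 in Ob + Exe, and Aurka, the Aurora kinase of the spindle poles, at 41.0 and 47.0 against 42.0 and 44.8. Aurkb was lower in both Ob + Exe libraries, by a mean of 9.20%, while the Aurka libraries of Ob + Exe lay between those of Ob.

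The checkpoint kinases did not move as one. Bub1, which recruits checkpoint proteins to kinetochores, stood at 23.1 and 25.8 scaled FPKM in Ob against 28.7 and 29.2 in Ob + Exe, a mean 18.8% higher with a log2 fold change of 0.25 ± 0.20 (SE) and no overlap. Bub1b, the BubR1 protein of the mitotic checkpoint complex, stood at 21.6 and 16.5 in Ob against 17.1 and 18.9 in Ob + Exe. Ttk, the Mps1 kinase that starts the checkpoint, stood at 13.9 and 13.5 in Ob against 10.9 and 14.1 in Ob + Exe. The last 2 had log2 fold changes of -0.07 and -0.15, with overlapping groups.

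The APC/C genes held the highest level of the set. Ube2c, the ubiquitin-conjugating enzyme of the APC/C, stood at 447 and 506 scaled FPKM in Ob against 436 and 586 in Ob + Exe, rank 85 by level among the 18596 genes tested, and its groups overlapped. Cdc20, the activator of the APC/C, stood at 56.5 and 45.4 in Ob against 34.2 and 43.6 in Ob + Exe, with no overlap, a mean 23.6% lower and a log2 fold change of -0.39 ± 0.23 (SE). The gap between the nearest libraries of the groups was small, 45.4 in Ob replicate 2 against 43.6 in Ob + Exe replicate 2.

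Centromere and passenger complex genes were mostly lowest in Ob + Exe replicate 2. Birc5, survivin of the chromosomal passenger complex, stood at 216 and 297 scaled FPKM in Ob against 275 and 199 in Ob + Exe. Cenpa, the histone H3 variant that marks centromeres, stood at 101 and 105 in Ob against 105 and 98.7 in Ob + Exe, and Cenpe, a kinetochore motor, at 23.9 and 29.1 against 26.5 and 22.5. In these 3 genes the groups overlapped and the log2 fold changes were -0.12, -0.02 and -0.11. Cenpf, a kinetochore protein of late G2 and mitosis, stood at 16.9 and 18.5 in Ob against 13.4 and 15.9 in Ob + Exe, lower in both Ob + Exe libraries with a log2 fold change of -0.28 ± 0.22 (SE).

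Among the spindle genes, Tpx2 stood lowest against Ob. Tpx2, the activator and spindle anchor of Aurka, stood at 45.8 and 44.6 scaled FPKM in Ob against 28.9 and 38.9 in Ob + Exe. Its mean was 25.0% lower, the log2 fold change was -0.43 ± 0.23 (SE) with a 95% confidence interval from -0.99 to 0.13, and the groups did not overlap. With read equivalents tested by limma voom, the log2 fold change of Tpx2 was -0.30. Kif20a, a kinesin of the central spindle, stood at 18.2 and 18.3 in Ob against 14.7 and 17.3 in Ob + Exe, again with no overlap. Kif20a shares 29.3% of its exon bases with Cdc23 on the opposite strand, which stood at 19.4, 19.0, 19.5 and 18.3 scaled FPKM in the 4 libraries. Kif11, the kinesin that pushes spindle poles apart, stood at 53.2 and 52.0 in Ob against 38.5 and 61.9 in Ob + Exe, and Nusap1, which bundles microtubules near chromosomes, at 73.4 and 69.0 against 55.3 and 89.6. Hmmr, a spindle and centrosome protein, stood at 20.4 and 14.7 in Ob against 10.6 and 21.0 in Ob + Exe. In these last 3 the Ob + Exe libraries enclosed both Ob libraries, and the gap between Ob + Exe replicates was 1.61-fold, 1.62-fold and 1.98-fold. Kif23, a kinesin of cytokinesis, stood at 36.5 and 39.8 scaled FPKM in Ob against 38.6 and 40.5 in Ob + Exe, which gave a log2 fold change of 0.05 that was -0.03 with no scaling.

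Top2a, the topoisomerase that untangles sister chromatids, and Mki67, which coats mitotic chromosomes and is the usual stain for dividing cells, ended differently. Top2a stood at 178 and 175 scaled FPKM in Ob against 143 and 219 in Ob + Exe, with a log2 fold change of 0.00 between groups and a 1.53-fold gap within Ob + Exe. Mki67 stood at 206 and 246 in Ob against 186 and 183 in Ob + Exe. Its mean was 18.4% lower in Ob + Exe, with a log2 fold change of -0.29 ± 0.21 (SE) and a 95% confidence interval from -0.80 to 0.23. The Ob + Exe libraries of Mki67 lay below both Ob libraries and close to each other, while the Ob libraries differed 1.19-fold.

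The Ob + Exe libraries differed from each other by more than the group means did, with Ob + Exe replicate 1 as the low library. The mean log2 value of the S phase genes was 5.57 and 5.64 in Ob against 5.41 and 5.75 in Ob + Exe, and that of the mitosis genes 5.61 and 5.63 against 5.35 and 5.62. The group difference was -0.02 for the S phase genes and -0.14 for the mitosis genes, beside an SD between replicates of 0.175 and 0.134. Of the 45 genes, 27 (60%) were lowest in Ob + Exe replicate 1, beside 31.5% of all genes tested and 29.7% of genes at or above the lowest of the 45. The Ob + Exe replicates differed by more than the Ob replicates for 33 of the 45 genes. This was so for 11442 of the 18596 genes tested and 3945 of the 5930 at or above the lowest of the 45. The median absolute log2 difference among the 45 was 0.37 within Ob + Exe and 0.15 within Ob. Over those 5930 genes, these medians were 0.36 and 0.22.

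**Figure D3:**
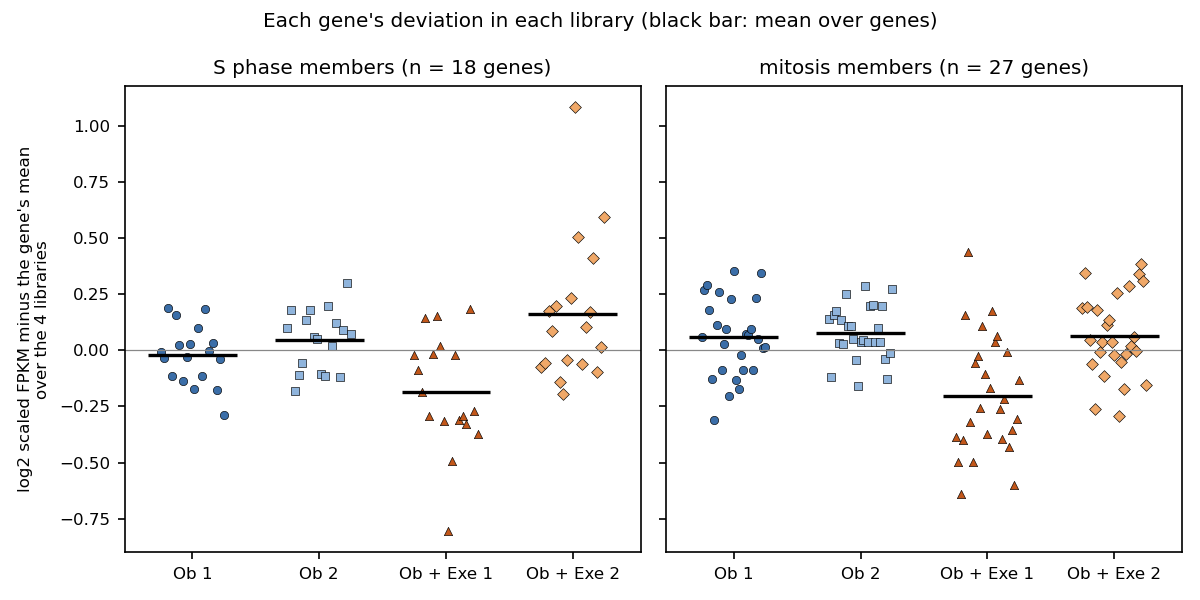
Log2 scaled FPKM of each gene minus its own mean over the 4 libraries, by library, for the 18 S phase genes (left) and the 27 mitosis genes (right); points are genes and black bars their mean. Both bars of Ob + Exe replicate 1 lie below those of the other 3 libraries.

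The size of both medians, and the direction of the S phase median, depended on which Ob + Exe library was kept. Without Ob + Exe replicate 1 the median log2 fold change was 0.05 for the S phase genes and -0.02 for the mitosis genes, and Gins2 was then called, from its value in replicate 2 alone. Without Ob + Exe replicate 2 the medians were -0.23 and -0.32. In that fit 5 genes, Gins2, Ccnb2, Cdk1, Plk1 and Tpx2, had an unadjusted limma p under 0.05, and 0 were called. Left with 1 library, Ob + Exe is assumed in these fits to vary as Ob does. Summed over the 45 genes, the level was 3350 and 3560 scaled FPKM in Ob against 2960 and 3600 in Ob + Exe.

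Other values differed between the Ob + Exe libraries too. Ob + Exe replicate 1 listed the fewest genes above 0, 17752 against 23309 and 20663 in Ob and 19291 in Ob + Exe replicate 2. It also held the fewest read equivalents, 44310505 against 53038186, 50423542 and 46668748, though aligned bases were fewest in Ob + Exe replicate 2. The part of these in the low values was not tested. Summed scaled FPKM of the 13 erythroblast markers was 74600 and 74900 in Ob against 56100 and 83100 in Ob + Exe, lowest and highest in the same libraries as the summed cell cycle genes. Most of the gap between the Ob + Exe libraries was Hbb-bs, a beta globin whose reads can be shared with the near copy Hbb-bt, at 17600 and 43300. Of the 13, 7 were lowest in Ob + Exe replicate 1, while Hba-a1, Alas2, Car2 and Gata1 were higher there than in replicate 2. The GC content of the leading transcript ran from 35.0% to 58.8% among the 45. Across these 45 genes, the log2 difference of Ob + Exe replicate 2 minus replicate 1 had a Spearman's rho of -0.40 with GC content, and across 5870 genes at or above their lowest level with a GC value it was -0.39. These are correlations across genes of the same 2 libraries, which are not independent replicates, and their part in the low values was not tested.

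Summed markers of the other cell types followed. The 8 markers of granulocyte-monocyte progenitors and promyelocytes, a dividing class, summed to 1490 and 878 scaled FPKM in Ob against 1640 and 1150 in Ob + Exe, with 0 called. All 8 log2 fold changes were above 0, with a median of 0.31, and the groups overlapped for 6. The 12 markers of maturing and mature neutrophils summed to 50500 and 28800 against 37300 and 67400, with Il1b called at a log2 fold change of 1.33. That sum was mostly S100a8 and S100a9. Of these 12, 11 were above 0, with a median of 0.37, and the groups overlapped for 9. For the 10 markers of pro-B and pre-B cells, a strongly dividing class, the sums were 180 and 202 in Ob against 135 and 106 in Ob + Exe, and each Ob + Exe library lay below each Ob library for 7 of the 10, beside 18.7% of all genes tested. All 10 log2 fold changes were below 0, with a median of -0.56. Of these 10, Cd79a and Igll1 were called, beside 3.71% of all genes, with log2 fold changes of -1.04 and -1.68. The 7 megakaryocyte markers summed to 465 and 345 against 384 and 141. All 7 log2 fold changes were below 0, with a median of -0.78, and the groups overlapped for 4. Only Gp1bb of the 7 was called, at -1.78, beside the same 3.71% of all genes. Plasma cell markers (6) summed to 388 and 208 against 321 and 420, with 0 called and Tnfrsf17 at 0 in Ob + Exe replicate 1. That sum was mostly Jchain, at 312 and 142 against 252 and 350, while the median log2 fold change of the 6 was -0.40 and 4 of them were below 0. Markers of T and NK cells (9) summed to 23.9 and 15.1 against 26.0 and 15.0, and those of monocytes and macrophages (9) to 521 and 479 against 468 and 526, with 0 called in either. The 7 markers of stem and progenitor cells summed to 27.6 and 20.7 against 23.4 and 17.7, with 0 called and Procr at 0 in at least 1 library and too low to be tested. Of the 6 tested, 5 were below 0, with a median of -0.35. Stroma and fibroblast markers summed to 127 and 177 against 122 and 180, with Col1a1 called at -1.02. Like the summed cell cycle genes, the sums for stroma and fibroblasts and for monocytes and macrophages were lowest in Ob + Exe replicate 1 and highest in replicate 2. Most of the stroma sum was Cxcl12, at 93.1 and 143 against 89.3 and 141, with 5 of the 12 markers lowest in Ob + Exe replicate 1. Most of the monocyte sum was Ly6c2, at 334 and 270 against 252 and 331, with only 1 of the 9 markers lowest there. The part of these cell types in the cell cycle values was not tested.

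Further genes of the cycle, outside the 45, were read in 7 lists and again none was called. Of 17 genes of origin recognition, licensing control and helicase activation, 9 were below 0 and 8 above, with a median log2 fold change of -0.05. Orc3 at -0.17 and Orc4 at 0.52, both subunits of the origin recognition complex, were the lowest and the highest of those whose groups did not overlap. Of 27 other replication enzymes, 17 were below 0, and each Ob + Exe library lay below each Ob library for 8 (29.6%) and above for 0, beside 18.7% and 14.0% of all genes tested. Only this list of the 7 held genes with an unadjusted limma p under 0.05, 2 of its 27, beside 5.02% of all genes tested. They were Pold2, a subunit of polymerase delta, and Chaf1b, a subunit of the chromatin assembly factor that places histones on new DNA. The Benjamini-Hochberg adjusted p from limma was 0.96 for both. Pold2 stood at 13.0 and 10.7 scaled FPKM in Ob against 5.51 and 8.47 in Ob + Exe, which gave a log2 fold change of -0.78. Chaf1b stood at 20.7 and 21.7 in Ob against 11.9 and 15.0 in Ob + Exe, which gave a log2 fold change of -0.66.

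For mitosis, 21 kinetochore and spindle checkpoint genes had a median of 0.00, from Cenpn at -0.57 to Mad2l1 at 0.22 among those whose groups did not overlap. The 28 other kinesins and cytokinesis genes had a median of -0.13, with both Ob + Exe libraries lower for 8 (28.6%) and higher for 1 (3.57%), beside the same 18.7% and 14.0%. Ckap2, a spindle protein, at -0.52 and Racgap1, a central spindle protein, at 0.09 were the lowest and the highest of these. The 13 genes of cohesin and condensin had a median of -0.06, with Ncaph, a condensin subunit, at -0.32 the lowest without overlap.

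Regulators that set the entry into the cycle were divided as well. Of 27 G1 cyclins, CDKs and E2F-Rb genes, 14 were below 0 and 13 above. E2f8, a repressor of the E2F family, was lowest without overlap at -0.59, with 56.6 and 59.8 scaled FPKM in Ob against 26.7 and 55.7 in Ob + Exe. Cdc25a, the phosphatase that activates Cdk2, was highest at 0.49. Of the 15 CDK inhibitors and other brakes on the cycle, 14 were tested and 8 of these were above 0, with a median of 0.12. Btg1, an antiproliferative factor of resting lymphoid and myeloid cells, was highest without overlap, at 44.9 and 37.9 scaled FPKM in Ob against 53.0 and 66.8 in Ob + Exe, which gave a log2 fold change of 0.53. Cdkn2a and Cdkn2b were listed at 0 in at least 1 library, and Cdkn2b was too low to be tested.

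Below the level of the gene, the transcripts of some members were divided differently in the groups. Of the 45 genes, 44 had more than 1 annotated transcript, 242 in all, of which 165 were above 0 in every library. In 24 genes the leading transcript held at least 80% of the gene's FPKM in every library. A transcript whose share differed by over 30 percentage points between groups that did not overlap was found in 5 genes, Mcm5, Cdt1, Ccne2, Aurka and Tpx2, by a limit set after the shares were seen. Over 10444 genes with more than 1 transcript and a mean of at least 1 scaled FPKM this held for 13.4%, and 5 of 44 is near that share.

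Mcm5 gave the widest change of share. ENSMUST00000164309.2, of 3381 bases, held 87.3% and 80.7% of its FPKM in Ob against 9.0% and 5.7% in Ob + Exe. ENSMUST00000212811.1, of 2653 bases, held 3.2% and 15.7% in Ob against 84.6% and 93.3% in Ob + Exe. Both are protein-coding with 2202 coding bases, and they differ in their first and last exons. The longer one begins with an exon at chr8:75109569-75109621 and ends at 75128439, and the shorter begins at chr8:75109624-75109874 and ends at 75127688 (GRCm38). When the most abundant transcript alone stood for the gene, the log2 fold change of Mcm5 was 3.82 in place of 0.22, and Mcm5 was called.

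Cdt1 was divided between a coding transcript and one that keeps an intron. The coding ENSMUST00000006760.2 held 48.7% and 25.7% of the FPKM in Ob against 81.6% and 88.3% in Ob + Exe. ENSMUST00000212967.1, annotated as a retained intron, held 46.8% and 71.3% in Ob against 14.2% and 7.7% in Ob + Exe. It reads through from 122569904 to 122570339 on chromosome 8, where the coding transcript has separate exons that end at 122570101 and begin at 122570194. With the most abundant transcript alone, Cdt1 had a log2 fold change of 1.23 and was called, against -0.03 for the whole gene.

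In Tpx2, ENSMUST00000164120.7 held 6.4% and 25.9% in Ob against 66.5% and 57.7% in Ob + Exe, while the summed level of the gene was lower in Ob + Exe. In Aurka, ENSMUST00000109140.9 held 43.2% and 57.9% in Ob against 70.6% and 93.1% in Ob + Exe. In Ccne2, ENSMUST00000029866.15 held 79.3% in Ob replicate 1, was listed at 0 in Ob replicate 2, and held 86.2% and 99.0% in Ob + Exe. The Ob libraries of Ccne2 thus lay far from each other. These transcripts share most of their exons within a gene, StringTie divides shared reads by estimation, and no error of that division is given in the tables.

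**Figure D4:**
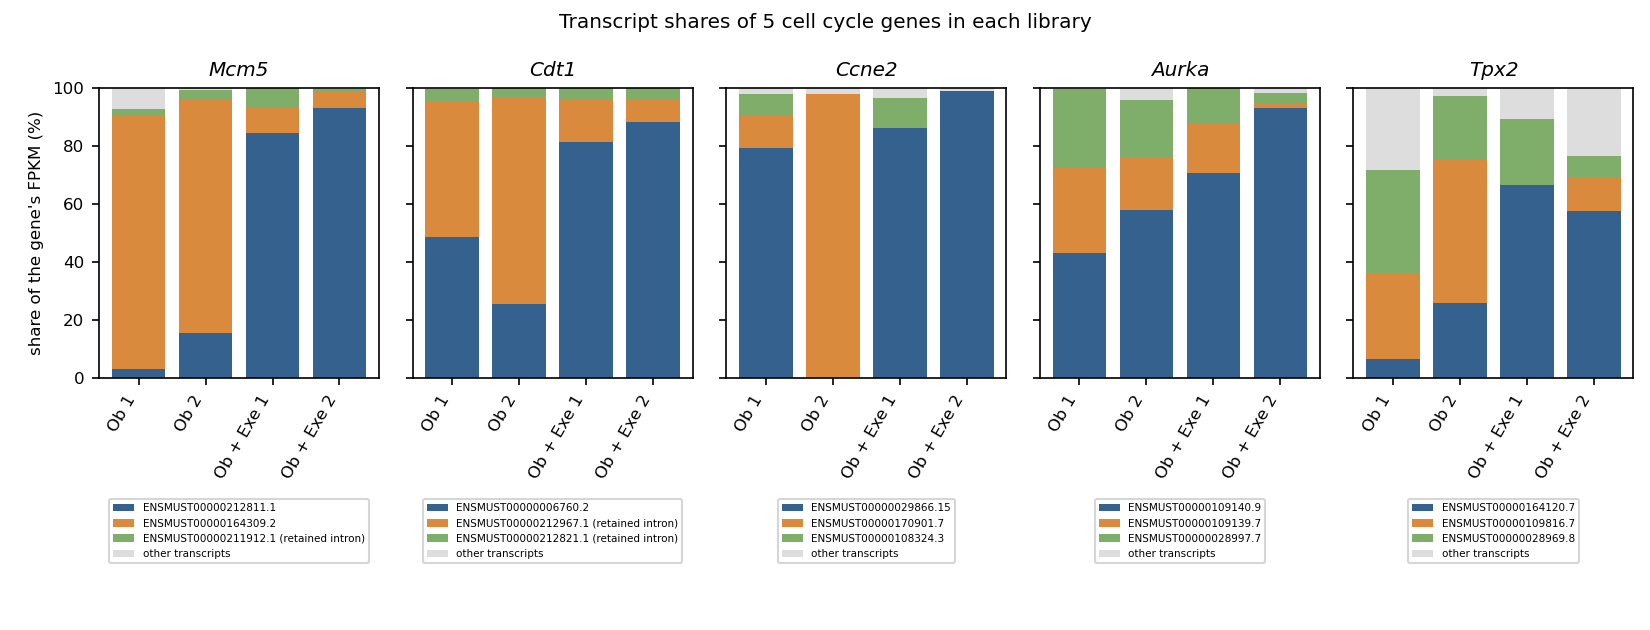
Share of a gene's FPKM (%) held by its 3 leading transcripts and by all others, in each of the 4 libraries, for the 5 genes with a shift of over 30 percentage points. The leading Mcm5 transcript of Ob (orange) holds at most 9.0% in Ob + Exe, and the retained-intron transcript of Cdt1 at most 14.2%.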

How the data were processed

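Bone marrow RNA was enriched for poly-A mRNA and sequenced as paired reads. As stated in the methods and the submitters' processing notes, the authors trimmed reads with fastp, removed rRNA reads, aligned to GRCm38 with HISAT2, filtered with SAMtools and quantified GENCODE transcripts with StringTie. The deposited tables, 1 per library, hold FPKM and read coverage, a signal not normalized for depth, for 142604 transcripts. The authors tested read counts with DESeq2, and counts are not used here.

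FPKM were summed to 55401 genes, scaled by median-of-ratios factors from genes with a mean of at least 1 FPKM, and tested as log2(FPKM + 0.1) with limma 3.58.1 in R 4.3.3 (eBayes with an intensity trend, 2 residual and 3.73 prior degrees of freedom) on 18596 genes with a mean of at least 0.1. Fold changes on this scale understate those of low genes. Adjusted p values are Benjamini-Hochberg, over all genes. The thresholds are those of the methods. The fit was tested on simulated data. Python 3.11.15, pandas 2.3.3 and matplotlib 3.10.9 were used. GENCODE vM21 gave exons and GC content.

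The members and lists were chosen with earlier results of these data known. All 45 genes were named, with the called genes and the lowest and highest without overlap of each further list. The replicate number was left out of the design because the sources describe no pairing. Alternatives were other pseudocounts, minimums and scalings, no trend, voom, the replicate block, the leading transcript and leaving out each library. The crossed block, the level-matched background and the share limit were added after the data were seen.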

Additional observations from a re-analysis of the deposited data

How the results depend on the processing

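The counts of called genes moved from 690 to 224 with a pseudocount of 1, 267 with a minimum mean of 1 FPKM, 1061 with no intensity trend, 453 with voom, and 601 to 1853 on leaving out 1 library. Members called were 0 in each of the settings except 2 (Mcm5 and Cdt1) with the most abundant transcript only, and 0 to 1 on leaving out 1 library (Gins2, without Ob + Exe replicate 1). On leaving out 1 library the mitosis median ran from -0.32 to -0.02 and the S phase median from -0.23 to 0.05. Without genes that act in more than 1 phase the medians were -0.06 for S phase and -0.12 for mitosis. With no scaling the medians were -0.14 and -0.22, while that of all genes moved to -0.10.

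The replicate block gave 776 called genes, and 28 genes with an adjusted p under 0.05, and 0 called members. The numbers were not taken as pairs, since the sources describe no pairing. Replicate differences in the 2 groups were not alike. Pearson's r between them was -0.11 across 18376 genes, -0.45 across the 5870 at or above the lowest member and -0.54 across the 45. With the numbers crossed, an alternative chosen after the data were seen, 782 genes were called, with 6 genes under 0.05 after adjustment. Plk1 had an unadjusted p under 0.05 with the numbers crossed (0.0325) and with no scaling (0.0418), the sole member that did in either.

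Single genes changed sign, most of them near 0 in the values reported but also Tpx2 (-0.43), Mcm5 (0.22) and Kif20a (-0.19), and the cause was not tested. With no scaling Pola1 was -0.07, Kif23 -0.03 and Top2a -0.08, and with quantile normalization Top2a was 0.00, just under 0. With voom, Mcm5 was -0.06, Pola1 -0.01, Tyms -0.07, Kif23 0.00, just under 0, and Top2a -0.08. With the most abundant transcript only, Cdc6 was 0.02, Cdt1 1.23, Ccnb1 0.03, Aurka 0.68, Aurkb 0.05, Cenpa 0.11, Kif20a 0.61, Kif23 -0.04, Tpx2 1.81 and Top2a -0.10.

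Leaving out each library in turn changed the sign of 29 of the 45 genes, whose log2 fold changes then ran as follows. Among S phase genes, Mcm4 ran from -0.20 to 0.17, Mcm6 from -0.35 to 0.14, Cdc6 from -0.22 to 0.13, Cdt1 from -0.08 to 0.01 and Pcna from -0.36 to 0.19. Gins2 ran from -0.67 to 1.21, Pola1 from -0.49 to 0.50, Prim1 from -0.25 to 0.06, Rrm2 from -0.36 to 0.10, Tyms from -0.29 to 0.45, Uhrf1 from -0.06 to 0.22 and Ccne2 from -0.27 to 0.70. Among mitosis genes, Ccna2 ran from -0.49 to 0.09, Ccnb1 from -0.58 to 0.27, Cdc25c from -0.02 to 0.20, Foxm1 from -0.18 to 0.51, Mybl2 from -0.40 to 0.10 and Aurka from -0.12 to 0.07. Ttk ran from -0.34 to 0.03, Bub1b from -0.28 to 0.11, Ube2c from -0.13 to 0.30, Birc5 from -0.36 to 0.11, Cenpa from -0.07 to 0.01 and Cenpe from -0.26 to 0.02. Kif11 ran from -0.46 to 0.23, Kif23 from -0.02 to 0.11, Nusap1 from -0.37 to 0.33, Hmmr from -0.71 to 0.27 and Top2a from -0.31 to 0.31.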
